A study of Mus musculus with 13 samples.

Results

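The Rab GTPases were taken as every gene of the deposited filtered count table whose symbol is Rab followed by a number and at most 1 letter, which gave 48 of 17280 genes. Rabs are small GTPases that sit on membranes and act as switches: in the GTP-bound state they recruit the motors, tethers and fusion proteins that move a vesicle to its target. Each compartment carries its own Rabs, so that early endosomes, recycling endosomes, late endosomes and Golgi membranes can be told apart by them. Microglia, the resident macrophages of the brain, take up debris, lipids and synaptic material, and the early to late endosome and phagosome route that Rabs organise is central to that work.

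The values came from single hypothalamic microglia of male C57BL/6J mice, sorted as CD45lo CD11b+ cells into 13 plates of 192 wells and sequenced by CEL-Seq2. In CEL-Seq2 each well has its own barcode, and each transcript is tagged near its 3′ end with a random unique molecular identifier (UMI), so PCR copies are not counted again. Mice received standard chow (control diet) or high-fat diet (HFD) for 1 day, 3 days, 1 week, 4 weeks, 9 weeks or 16 weeks. The deposited labels list hypothalamus, cerebellum, hippocampus and cortex as dissected, and the study's methods name the hypothalamus for these cells. Diet, length of HFD and replicate identifier were read from the deposited table of wells, and all groups were of the same strain with no transgene. Well names on 10 plates carry 9, 14 or 24 weeks, and the sources used here do not say whether these are ages. On plate 13 the 3 days and 1 week wells carry 14, the 16 weeks wells carry 24 and the control wells carry both, and on the others of these plates the wells of a plate share 1 number.

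Of 2496 wells, 1617 held at least 1500 transcripts over the genes of the filtered table and were kept, among them 722 control wells. The 192 well barcodes were the same on every plate. Wells are not replicates, so counts were summed over the kept wells of 1 replicate identifier on 1 plate, where at least 5 wells were present. This gave 68 sums, which were 28 for control, 6 for 1 day, 6 for 3 days, 7 for 1 week, 5 for 4 weeks, 6 for 9 weeks and 10 for 16 weeks of HFD. Plates whose well names are the same apart from the plate tag were taken as linked. With linked plates joined, the control sums came from 19 replicates. The HFD sums came from 6 replicates at 1 day, 4 at 3 days, 5 at 1 week, 3 at 4 weeks, 2 at 9 weeks and 5 at 16 weeks. A control sum held 24157 to 219199 transcripts (median 64609), so 1 transcript in the median control sum corresponds to 15.5 CPM. Levels are given in CPM, transcripts per 1000000 transcripts of the filtered genes. Plate 5 held no control sum, so its 2 sums each at 3 days, 1 week and 4 weeks had no control on the same plate. The control sum of identifier L1 on plate 1 joins 49 kept wells named for 4 weeks and 24 named for 10 weeks. Whether an identifier is 1 mouse is not stated, and several identifiers lie on more than 1 plate, so p-values measure the spread between these sums and part of that spread may be technical. The 10 microglial markers summed to 22774 to 37960 CPM over all 68 sums, and all 10, Tmem119, P2ry12 and Cx3cr1 among them, were detected in every group.

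All 48 Rabs were detected, and 47 of them in control wells. In the control sums the 48 genes together gave 2951 ± 312 CPM (SD, n = 28 sums), with a lowest of 2249, a median of 2992 and a highest of 3529. A control well held a median of 8 Rab transcripts from a median of 6 Rab genes, with 0 to 37 transcripts and 0 to 19 genes over the wells. Since CEL-Seq2 counts 1 tag per molecule, levels of different Rabs were compared per molecule and not divided by length. Of the 48 genes, 13 had enough counts to pass filterByExpr of edgeR and were tested by diet, and these gave 70.5% ± 4.66 of the Rab transcripts in control. A total of 28 Rabs lay under 50 CPM in control, and 13 of these under 10.

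**Figure D1:**
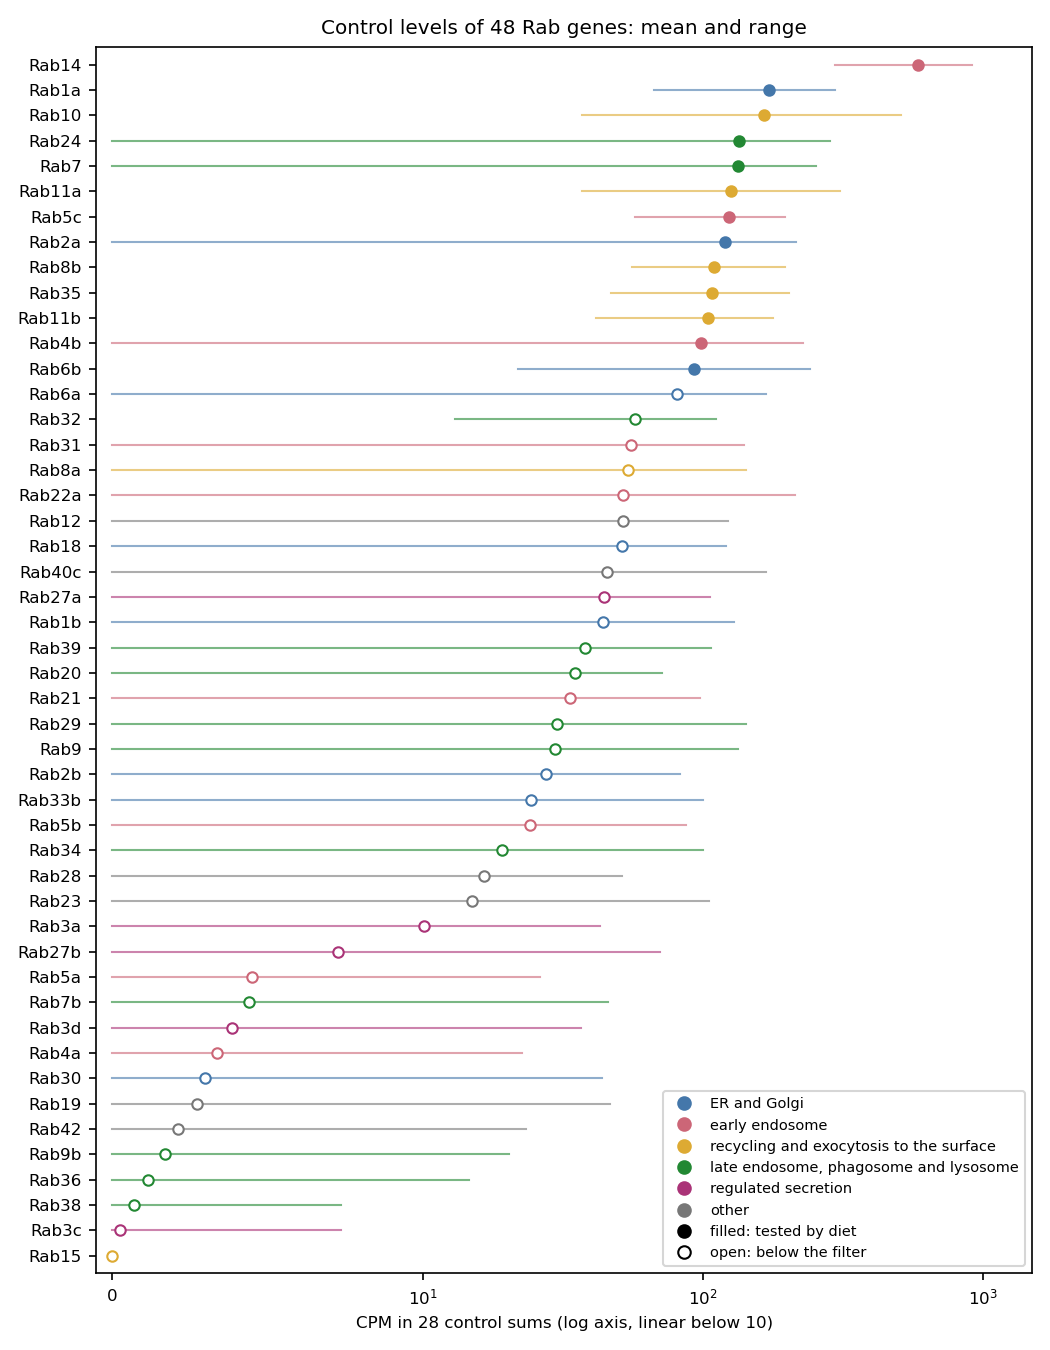
Control level of each of the 48 Rabs on the x axis (CPM, log axis that is linear below 10), with the mean over 28 control sums as a point and the lowest to highest sum as a line, coloured by role. Rab14 lies alone on the right at 586, 12 further Rabs lie between 93.3 and 173, and Rab15 lies at 0.

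The early endosome class led the family. Its 9 members summed to 982 ± 145 CPM in control (n = 28), which was 33.3% of the Rab transcripts. Rab14, which acts between early endosomes, the Golgi and phagosomes, made up most of this. Without Rab14 the class would lie below the recycling (667), ER and Golgi (618) and late endosome (485) classes in control. Rab14 (chr2:35180205-35201120, minus strand, GRCm38, GENCODE M21) ranged from 297 to 919 CPM over the control sums, with a median of 571 and a mean of 586 ± 138. It was the highest Rab in 66 of the 68 sums, it gave 19.8% ± 4.25 of the Rab transcripts in control, and it was placed at number 168 of the 17280 genes by control level. It had a UMI in 79.1% of kept wells, where Poisson counting at its pooled level and the depth of each well would give 80.5%, so nearly as many wells held it as counting alone would give. Rab5c, one of the Rab5 forms that define the early endosome and drive its fusion, followed at 124 ± 36.6 (57.1 to 197), and Rab4b, a Rab of fast recycling, at 98.4 ± 54.5 (0 to 229). The other members with higher levels were Rab31, which sorts cargo between the Golgi and endosomes, at 55.5 ± 35.0 and Rab22a at 51.9 ± 43.1.

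Recycling endosomes and traffic to the surface were represented by 7 Rabs with 667 ± 163 CPM in control, or 22.5% of the family. Rab10, which carries cargo such as receptors from endosomes and the Golgi to the plasma membrane, had a mean of 166 ± 106, and its control sums ran from 37.1 over a median of 139.9 to 512, the widest range relative to the mean among the 6 highest Rabs. Rab11a and Rab11b, the Rabs of the slow recycling endosome, were at 126 ± 58.7 and 104 ± 38.5. Rab8b and Rab35, which act in delivery to and recycling from the surface, were at 109 ± 35.8 and 108 ± 42.2, and Rab8a was at 53.9 ± 34.0. Rab15 was the only Rab with 0 transcripts in the control wells, which allows up to 1.36 CPM (3 transcripts over all control wells, counting error only), and it had 5 transcripts in 5 HFD wells.

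The 9 Rabs of the ER and Golgi summed to 618 ± 130 CPM in control. Rab1a, which is needed for transport from the ER to the Golgi, was the next highest Rab after Rab14 at 173 ± 52.2 (67.0 to 296). Rab2a, also of early secretory traffic, was at 120 ± 54.1, and the Golgi Rabs Rab6b and Rab6a at 93.3 ± 54.7 and 81.2 ± 44.0. Rab18, a Rab of the ER and of lipid droplets, was at 51.3 ± 32.2. Rab6b was the lowest Rab that passed the filter on low counts and Rab6a the highest that did not.

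The late endosome, phagosome and lysosome class had 12 members and 485 ± 105 CPM in control. Rab24, linked to autophagosomes, and Rab7, the Rab that defines late endosomes and drives their fusion with lysosomes, were level with each other at 135 ± 63.6 and 133 ± 62.0, and each was at 0 in 1 of the 28 control sums. Rab32, which acts on lysosome-related organelles and mitochondria, was at 57.2 ± 28.1 and was present in every control sum. Rab39 was at 37.9 ± 33.4. The regulated secretion Rabs were low, with 65.9 ± 38.1 CPM over 5 genes, mostly Rab27a, which docks secretory lysosomes and exosome-bearing compartments, at 44.4 ± 33.7. Rab3a, the synaptic vesicle Rab of neurons, was at 10.1 ± 11.9. The other 6 Rabs summed to 133 ± 63.9, led by Rab12 at 51.7 ± 34.4 and Rab40c at 45.3 ± 32.4. The 12 Rabs with under 10 CPM but above 0 were Rab27b at 7.3, Rab5a at 4.5, Rab7b at 4.4, Rab3d at 3.9, Rab4a at 3.4, Rab30 at 3.0 and Rab19, Rab42, Rab9b, Rab36, Rab38 and Rab3c at 2.7 or less, and each was at 0 in 18 to 27 of the 28 control sums. Among the 12 Rabs that follow Rab14, the control ranges of any neighbours in the order overlapped. Their order was not tested, apart from Rab11a against Rab11b below.

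Several Rabs share a number and were paired by it alone. For these pairs, 19 control replicates, with linked plates added together, were used to ask which same-numbered gene was higher. They rest on 15 replicate identifiers, since 4 identifiers appear on unlinked sets of plates and enter more than once. In 12 of 15 same-numbered pairs the forms differed at an adjusted p under 0.05 (two-sided paired permutation test with 100000 resamples, Benjamini-Hochberg over the 15 pairs, added after the levels had been seen). With each of the 15 identifiers counted once, as the mean of its levels, 12 of 15 pairs passed as well (exact paired permutation test), with adjusted p-values from 0.000305 to 0.0204. Rab5c exceeded Rab5b in 19 of 19 replicates, at 124 ± 32.3 against 22.9 ± 22.7 CPM, and Rab5a was lower still at 3.84 ± 7.04 (adjusted p = 6e-05 by permutation for Rab5c against each, from a p of 2e-05, the smallest that these resamples can give). Rab1a exceeded Rab1b 4.15-fold, with 164 ± 47.5 against 39.6 ± 28.3, and was higher in 18 of 19 replicates (adjusted p = 6e-05 by permutation). Rab2a exceeded Rab2b 4.48-fold (adjusted p = 1e-04 by permutation, higher in 17 of 19), and Rab8b exceeded Rab8a 1.97-fold (adjusted p = 0.000233 by permutation, higher in 17 of 19).

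Rab7 was at 128 ± 58.5 and its paralogue Rab7b at 4.96 ± 13.2 (adjusted p = 6e-05 by permutation, higher in 18 of 19 replicates). Rab4b was at 93.4 ± 52.3 and Rab4a at 3.47 ± 5.20 (adjusted p = 6e-05 by permutation, higher in 18 of 19). Rab27a exceeded Rab27b 5.53-fold (adjusted p = 0.000214 by permutation, higher in 14 of 19). The Rab11 pair was the closest of those that passed, with Rab11a 1.29-fold over Rab11b and higher in 13 of 19 replicates (adjusted p = 0.0235 by permutation). The Rab6 forms could not be told apart, with 88.1 ± 39.1 for Rab6a and 87.3 ± 50.5 for Rab6b, a mean difference of 0.835 with an SD of 48.6 (adjusted p = 0.939 by permutation).

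**Figure D2:**
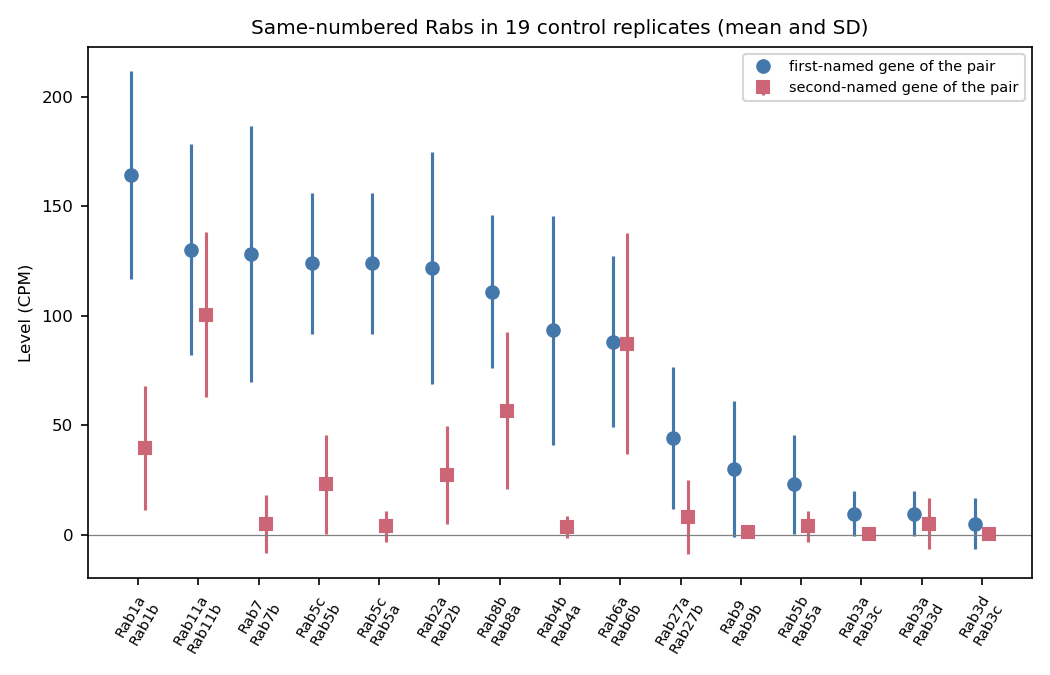
Level (CPM) of both genes of each same-numbered pair (mean and SD over 19 control replicates; circles for the upper name, squares for the lower). One form predominates for Rab1, Rab2, Rab4, Rab5 and Rab7, with the second form at 39.6 or less, while Rab6a and Rab6b overlap.

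Some of the low values lie where the annotation overlaps. The 3′ end of Rab4a (chr8:123805985-123835287, plus strand) lies within Gm20388, annotated as coding on the same strand over the whole of Rab4a, and Gm20388 was not in the filtered table. The 3′ end of Rab5a (chr17:53479234-53507680, plus strand) overlaps Pp2d1 on the opposite strand by 221 bases, and Pp2d1 had 8 transcripts. The 3′ ends of Rab15, Rab2b, Rab3a, Rab7, Rab10 and Rab40c also lie within a gene on the opposite strand, and Rab4b lies within the same-strand coding gene Gm21983. The strand setting and the rule for shared reads are not given in the sources used here, so these levels are uncertain, and how much the overlap lowers Rab4a or Rab5a was not tested.

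The main question put to these sums was whether Rab levels move with HFD. No change was called for any of the 13 fitted Rabs at any length. By edgeR's quasi-likelihood test with the plate as a term and Benjamini-Hochberg adjustment over 2336 genes, 0 of 13 Rabs passed an adjusted p of 0.05 in each of the 6 lengths against control and in the joint test of any length, where the share of all genes called was 0% in each of these 7 comparisons. The smallest adjusted p of a Rab was 0.818. At an unadjusted p under 0.05 there was 1 Rab of 13 at 3 days, 1 at 1 week, 1 at 16 weeks and 0 at 1 day, 4 weeks and 9 weeks, beside 96 to 148 of the 2336 genes. The joint test gave 0 Rabs and 133 genes at that limit. DESeq2 also called 0 Rabs in every comparison, called 1 gene, no Rab, at 9 weeks, and gave 1 at an unadjusted p under 0.05 at 3 days, 1 at 1 week and 1 at 16 weeks. The 6 comparisons share their control sums.

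The 48 Rabs summed to means of 2786 to 2992 CPM over the 6 lengths, beside 2951 in control. Within plates that held both diets, the Rab total was higher than in control on 1 of 2 plates at 1 day, 1 of 2 at 3 days, 0 of 4 at 1 week, 1 of 2 at 4 weeks, 2 of 3 at 9 weeks and 3 of 6 at 16 weeks. The 3 plates at 9 weeks hold the same identifiers, and some of the 6 at 16 weeks share theirs as well. At 1 week the means of the 4 plates averaged 2818 in HFD and 3147 in control. Early endosome Rabs were the highest class in every group, with means of 916 to 1052 CPM over the 6 lengths, and regulated secretion Rabs the lowest, with 74.0 to 108. The rank of the early endosome class rests on Rab14, which was placed in it. Recycling Rabs (532 to 657) lay above ER and Golgi Rabs (567 to 650) in control and at 3 days and below them at the other 5 lengths, by less than the SD of either class within a group except at 4 weeks, where they were at 532 ± 62.8 and 650 ± 73.8.

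**Figure D3:**
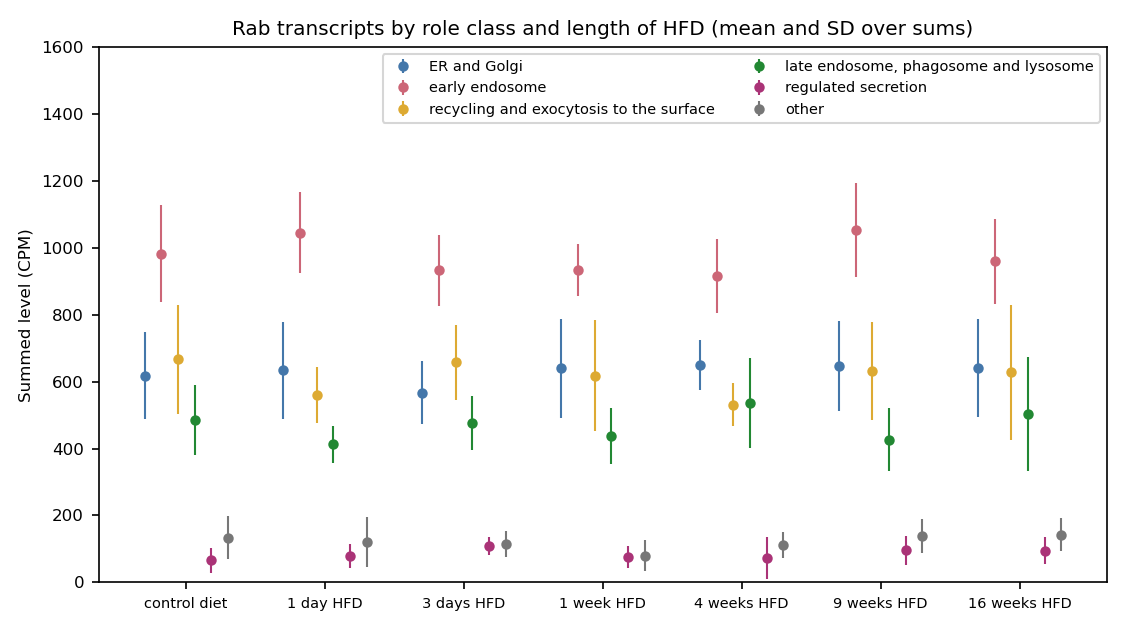
Summed CPM of each Rab role class (mean and SD over sums) for control diet (28 sums) and each length of HFD (5 to 10 sums). Early endosome Rabs are the highest class in every group, at 916 to 1052 in HFD and 982 in control. This rank rests on Rab14, which is at 586 in control.

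At 3 days of HFD the Rab with the smallest p was Rab5c (chr11:100715009-100738215, minus strand). The 3 days sums ran from 31.0 over a median of 71.0 to 115 CPM, and the 28 control sums from 57.1 over 122 to 197, so the groups overlapped. On plate 13 the 3 days sums were 63.6 and 67.8, under all 4 control sums of that plate, while on plate 4 they were 31.0 and 94.6 beside the only control sum there, of 101. The fitted log2 fold change was -0.74 (SE 0.34, 95% interval -1.42 to -0.05, adjusted p = 0.989). Rab10 was next, at 114 to 280 in the 3 days sums, with a log2 fold change of 0.41 (SE 0.32, adjusted p = 0.989). The median log2 fold change of the 13 Rabs was -0.16, beside 0.00 over all genes.

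At 1 week, Rab4b had a log2 fold change of -0.80 (SE 0.38, 95% interval -1.55 to -0.05, adjusted p = 0.999). Its sums ran from 0 over 63.1 to 131 CPM at 1 week and from 0 over 92.1 to 229 in control, and it was lower than control on 3 of 4 plates. Rab8b was next with a log2 fold change of -0.49 (SE 0.38, adjusted p = 0.999), from sums of 32.3 to 197 beside 55.7 to 197 in control.

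At 16 weeks, Rab24 (chr13:55319743-55321946, minus strand) had a log2 fold change of 0.49 (SE 0.22, 95% interval 0.04 to 0.93, adjusted p = 0.963). The 16 weeks sums ran from 86.6 over 173 to 255 CPM and the control sums from 0 over 133 to 285. The plate mean was higher than that of control on 6 of 6 plates, although the sums of the groups overlapped on 3 of the 4 plates that held more than 1 sum of each. These plates are not independent, since plates 2 and 3 hold the same identifiers, and so do plates 10, 11 and 12. On plate 10 both 16 weeks sums (162 and 240.3) lay above the 4 control sums (59.3 to 157). Rab24 overlaps Prelid1 on the opposite strand at its 5′ end. Rab35 was next, with 22.1 to 136 beside 46.9 to 203 in control and a log2 fold change of -0.40 (SE 0.26, adjusted p = 0.982).

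At 1 day, Rab14 ran from 547 over 641 to 782 CPM, and its log2 fold change was 0.30 (SE 0.18, 95% interval -0.05 to 0.66, adjusted p = 1). All 3 of the 1 day sums on plate 6 (594, 773 and 782) lay above the 3 control sums there (485, 504 and 534), while those on plate 8 overlapped. Rab24 at 1 day had a log2 fold change of -0.55 (SE 0.34, adjusted p = 1). At 4 weeks the 5 sums of Rab14 were 353, 410, 530, 577 and 608, with a log2 fold change of -0.35 (SE 0.20, 95% interval -0.75 to 0.05, adjusted p = 0.997), and the fold change of Rab4b was -0.46 (SE 0.41, adjusted p = 0.997). The Rab4b sums ran from 72.1 over 96.4 to 140 CPM at 4 weeks and from 0 over 92.1 to 229 in control. Without the plate term its log2 fold change was -0.05. At 9 weeks Rab5c ran from 107 to 280 around a median of 174, with a log2 fold change of 0.47 (SE 0.26, 95% interval -0.05 to 0.98, adjusted p = 0.818), and Rab2a from 0 to 165 with -0.48 (SE 0.36, adjusted p = 0.896).

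**Figure D4:**
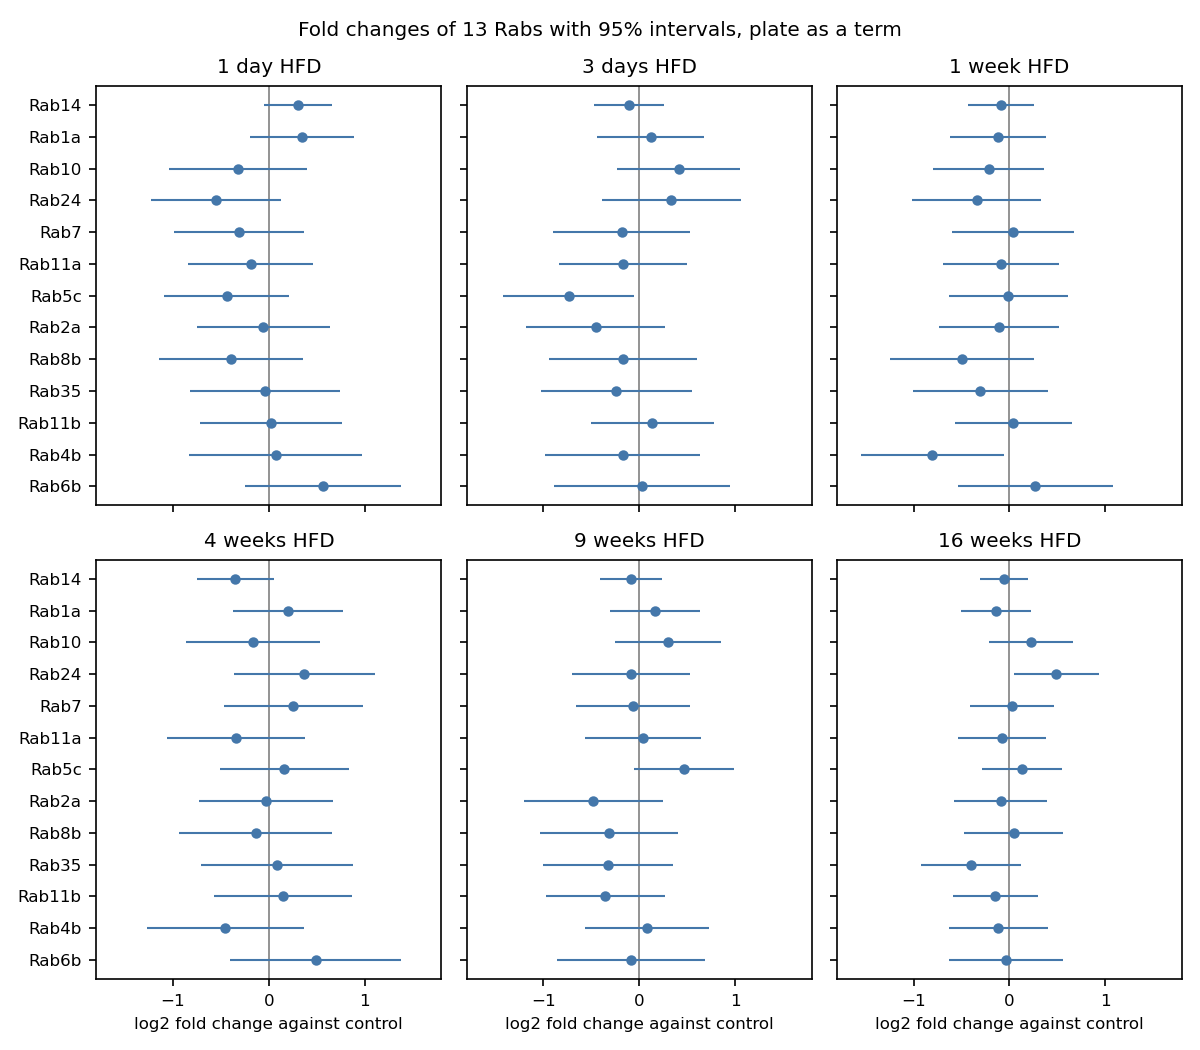
Log2 fold change against control (x axis) with its 95% interval for the 13 fitted Rabs (y axis) at each of the 6 lengths of HFD. Of the 78 intervals, 75 include 0, and those of Rab14 are the narrowest.

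The intervals set what these sums could show. Of the 78 estimates, 74 lay within 0.5 log2 units of 0, and 57 of the 95% intervals lay wholly within 1 log2 unit. The half-width of the interval was 0.25 to 0.40 for Rab14, 0.36 to 0.58 for Rab1a and up to 0.92 for Rab6b, and for Rab14, Rab1a, Rab7 and Rab11b all 6 intervals lay within 1 log2 unit of 0. Changes inside these intervals were not excluded by these sums, and the 35 Rabs under the filter were not in this fit. The fit without a filter called 0 of 48 Rabs at any length. For the fitted Rabs not described above by fold change, Rab1a had estimates of -0.14 to 0.35 and group means of 152 to 198 CPM over the lengths, Rab7 had -0.31 to 0.25 and 102 to 130.2, Rab11a had -0.35 to 0.04 and 75.8 to 109, Rab11b had -0.35 to 0.15 and 86.2 to 137, and Rab6b had -0.08 to 0.57 and 71.0 to 131. Each of these intervals included 0.

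Rab10 differed between plates. In a test of the plate terms of the same fit, added after the values had been seen, 449 of 2336 genes were called by edgeR (19.2%) and 1 of the 13 Rabs, Rab10 (adjusted p = 3.89e-11). DESeq2 called 480 genes and 1 Rab. Rab10 (chr12:3247428-3309969, minus strand) stood at plate means of 479 CPM on plate 9 and 376 on plate 10, and at 109 to 170 on the other 11 plates. On plate 9 its control sum (494) and its 1 week sum (463) were alike. On plate 10 the sums were 105, 203, 267 and 512 in control, 372 and 490 at 9 weeks and 320 and 740 at 16 weeks. The only sums in which Rab14 was not the highest Rab were 2 on plate 10, in which Rab10 was.

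The higher level was spread over many wells. A Rab10 UMI was found in 58.5% of wells on plate 9 (median depth 2587 transcripts) and 59.8% on plate 10 (median 4126), against 21.5% to 48.1% on the other plates, where the median depth ran from 2188 to 4676. Without the wells that held 5 or more Rab10 transcripts, the pooled levels were still 369 and 257. Rab10os, the gene on the opposite strand at the 3′ end of Rab10, was at 23.2 and 13.5 on these plates and at 14.1 to 44.6 elsewhere. Rab14, in contrast, had plate means of 551 to 619. Since plates 9 and 10 were picked for their Rab10 level, a smaller Rab10 spread without them follows from that choice. Without plates 9 and 10 the plate test called 0 of 13 Rabs, the Rab10 plate means differed by at most 1.57-fold, and 0 Rabs were called at any length of HFD. Plates 9 and 10 are the plates whose well names carry the tag P2, and they hold different lengths of HFD. Why they differ was not tested.

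**Figure D5:**
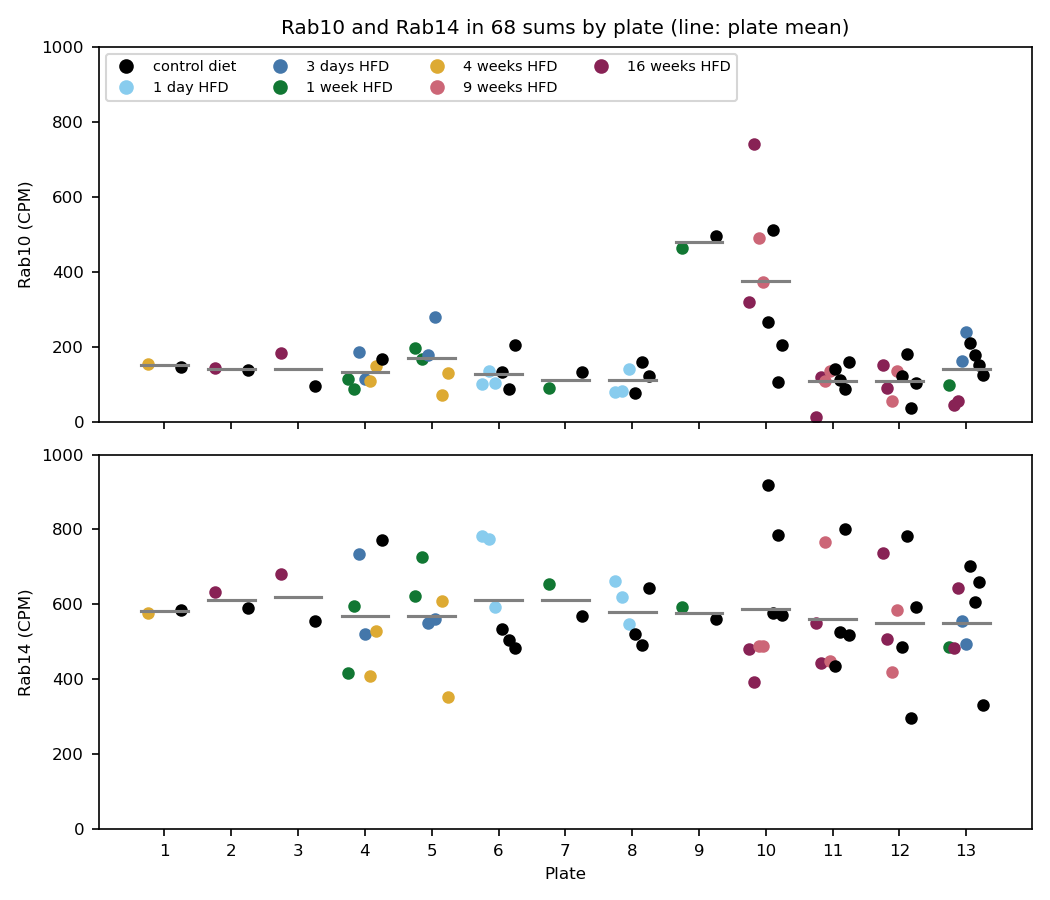
Level (CPM) of Rab10 (upper) and Rab14 (lower) in each of the 68 sums by plate, coloured by diet, with a line at the plate mean. Rab10 is raised on plates 9 and 10, where the plate means are 479 and 376 and the raised sums are of both diets, while the plate means of Rab14 stay between 551 and 619.

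Rabs work with exchange factors that load them with GTP, activating proteins that end the signal, dissociation inhibitors and effectors. Of a list of 121 such genes, 115 were in the filtered table, all with transcripts, and 31 entered the fit. Of these 31, 0 were called by edgeR at any length or in the joint test, and their median log2 fold change lay between -0.04 and 0.04 at every length. At an unadjusted p under 0.05 there were 4 of 186 estimates over the 6 lengths, or 2.15%, beside 4.11% to 6.34% of all genes in each comparison. Gdi2 was at -0.40 on the log2 scale at 3 days, Vps18, part of the tethering complexes of late endosomes, at 0.59 at 9 weeks, and at 16 weeks Madd, an exchange factor for Rab3 and Rab27, at 0.69 and Rabac1, a Rab acceptor of Golgi membranes, at -0.35. The joint test gave Vps18 as well. The highest in control were Gdi2, a GDP dissociation inhibitor that keeps Rabs soluble, at 410 ± 109 CPM, Hps4, part of the exchange factor for Rab32 and Rab38, at 375 ± 96.8, and Rin2, an exchange factor for Rab5, at 322 ± 92.0. In the plate test 1 of the 31 was called, beside 19.2% of all genes.

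A few wells held more transcripts of another marker list than of the microglial list. In 17 of 1617 kept wells, the markers of another cell type or the MHC class II genes outnumbered the 10 microglial markers. Of these, 16 were led by MHC class II, 11 were on plates 4 and 5 and 2 were control wells. Whether the wells led by MHC class II held another cell type or microglia was not tested. Part of the transcripts of 2 sparse Rabs came from the 17 wells. Rab7b had 30 transcripts in 15 wells, and 9 of them came from a 4 weeks well on plate 4 with 1629 MHC class II transcripts, 40 microglial marker transcripts and 19948 transcripts in all. Rab3d had 31 transcripts in 24 wells, and 6 came from a 4 weeks well on plate 5 with 974 monocyte and neutrophil marker transcripts and 13 of microglia. Wells led by other markers held 10 of the 30 Rab7b transcripts and 9 of the 31 Rab3d transcripts. The summed monocyte and neutrophil markers ran from 5.15 to 13288 CPM over the 4 weeks sums, from 20.5 to 1168 at 1 week, from 9.46 to 672 at 3 days, from 0 to 221 at 16 weeks, from 0 to 22.5 at 9 weeks, from 0 to 19.5 at 1 day and from 0 to 40.5 in control. The neuron markers reached at most 263 in any sum and those of oligodendrocytes at most 256, the astrocyte markers 67.4, the endothelial markers 136, the border macrophage markers 330.5 and the lymphocyte marker 82.8. Markers absent from the filtered table could not be counted. It held 4 of 6 for neurons, 3 of 5 for oligodendrocytes and 3 of 5 for astrocytes (without Aqp4 and Gfap). It held 2 of 4 for endothelial cells, 5 of 6 for border macrophages, 2 of 4 for monocytes and neutrophils and 1 of 4 for lymphocytes. With the 17 wells left out, 12 Rabs passed the filter and 0 were called at any length, and the Rab levels in control sums came to 2952 CPM in all.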

How the data were processed

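Single microglia were sequenced by CEL-Seq2. According to the study's methods, barcodes were trimmed with Cutadapt, reads mapped to GRCm38/mm10 with STAR and counted with featureCounts in snakePipes. The authors deposited estimated counts per gene and well (UMIs corrected for chance repeats with 4096 tags, not normalized), and 100% of the values above 0 converted back to whole UMIs within 0.001. The filtered table gave only the 17280 gene names, which leave out 447 of the genes common to all plates and 22.3% of their transcripts. Of the kept wells, 843 were marked by the authors as part of their own analysis. Wells marked 7 days and 1 week were joined. Levels are sums divided by the transcripts over the filtered genes, times 1000000 (CPM).

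Sums were rounded and fitted over all genes with edgeR 4.0.16 in R 4.3.3 (quasi-likelihood test, TMM, filterByExpr, length of HFD with the plate as a term, adjusted p threshold 0.05). DESeq2 1.42.0 was the other tool. The intervals are the fold change ± t quantile times SE, with SE taken from F. Identifiers on linked plates enter more than once, which overstates the degrees of freedom. Pair tests used scipy 1.17.1. Positions are from GENCODE M21, and all 48 Rabs lay on the chromosome given in the files. No doublet caller was run, because single cells were sorted into wells.

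The members and lists were chosen with earlier results of these data known. Named were every fitted Rab by level, the fold changes of the 2 Rabs with the smallest p in each comparison, the 2 highest Rabs of each role class outside the fit, any Rab with no transcript, and the 3 pathway genes with the highest control level. Other names were chosen after their values were seen. Alternatives were the tool, normalization, filter, plate term, plates and wells used, unit, minimum of wells and each replicate left out. The interval of a count of 0 rests on 3 counts. Protein and promoter sequences were not used here.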

Additional observations from a re-analysis of the deposited data

Results flagged for a closer look

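In 84 groups of 5 to 10 sums (13 Rabs and the Rab total at 6 lengths of HFD), 5 held a sum whose distance from the nearest other was too large for the range of its group by Dixon's test, where chance gives about 1 in 20. Rab10 stood out in a pair of these. Its 1 week sum on plate 9 was 463 CPM beside a nearest value of 197, and its 16 weeks sum of identifier M6 on plate 10 was 740 beside 320. Both lie on the plates on which Rab10 was also raised in control. The other sums were Rab14 in a 3 days sum on plate 4 (733 beside 560), Rab24 in a 1 day sum on plate 6 (235 beside 119) and Rab6b in a 16 weeks sum on plate 10 (294 beside 154.5).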

How the results depend on the processing

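Under every alternative run, 0 Rabs were called at each length and for any length, including DESeq2, RLE size factors, no filter (48 Rabs tested), no plate term, the plates that hold a length and control (1 to 10 Rabs tested), sums over linked plates (19 Rabs tested), sums of at least 10 wells, each of 44 replicates left out and, chosen after seeing the data, the fits without plates 9 and 10 and without wells led by other markers (12 Rabs tested). The counts over all genes, 0 in each comparison, moved more, to 0 to 30 without a filter, 0 to 59 without the plate term, 0 to 3 on the plates of a length, 0 to 7 over linked plates, 0 to 1 by DESeq2 and 0 to 6 with replicates left out. The 12 named fold changes kept their sign in each of the 97 fits with another setting and the 527 fits with a replicate left out in which the gene passed the filter. On only the plates of a length, that was Rab14 at 1 day and at 4 weeks alone. Their sizes moved more. With replicates left out, the log2 fold change of Rab4b at 1 week ranged from -1.31 to -0.56 and that of Rab8b from -0.71 to -0.20, the -1.31 and the -0.20 each without a sum of plate 9. Rab4b at 4 weeks ranged from -0.71, without 1 week replicate M4 of plate 9, to -0.21, without the control replicate of plate 1. Rab35 at 16 weeks ranged from -0.64 without replicate L4 to -0.18 without M5, Rab5c at 3 days from -1.11 without M25 to -0.56, Rab14 at 4 weeks from -0.53 without L2 to -0.25, and Rab24 at 1 day from -0.78 to -0.35, the latter without control replicate M11. The other 5 stayed within 1.5 times the reported value in these fits. Among the other settings, sizes moved by over 1.5 times in the fits without the plate term and without plates 9 and 10. Without the plate term, Rab14 was at 0.17 and Rab24 at -0.23 at 1 day, Rab10 at 0.19 at 3 days, Rab4b at -0.46 at 1 week, Rab14 at -0.20 and Rab4b at -0.05 at 4 weeks, and Rab2a at -0.76 at 9 weeks. Without plates 9 and 10, Rab4b was at -1.30 and Rab8b at -0.19 at 1 week, Rab4b at -0.68 at 4 weeks, and Rab5c at 0.30 and Rab2a at -0.28 at 9 weeks. With replicates left out, the p of Rab4b at 1 week ranged from 0.00286 to 0.156, that of Rab5c at 3 days from 0.00583 to 0.125 and that of Rab24 at 16 weeks from 0.0228 to 0.109. The plate test called 3 Rabs without the filter on low counts (Rab10, Rab39 and Rab7b) and 0 without plates 9 and 10, and 1 with each replicate left out. The Rab levels in control sums came to 2285 CPM in all (2951 as reported) when the genes removed by the authors were added to the total, since the divisor grows, and the 13 highest Rabs were the same genes in each of the 4 settings of wells and scaling. The plate was the block in the fit, which compares diets within the plates that hold control and HFD sums, all but plate 5. Some replicate identifiers recur under different diets or lengths, but not on the same plate, and 4 control identifiers recur on unlinked plates, and nothing in the sources used here says that they mark a shared mouse or day, so no fit with the identifier as a block was run. The depth limits most the 35 Rabs under the filter, 12 of which were at 0 in 18 or more of the 28 control sums but had transcripts in others.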

Other observations

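A further Rab, Rab43, was in all 13 plate tables but not in the filtered table, and so was not a member. It had 476 transcripts in the kept wells, with a UMI in 22.9% of them, and a pooled level of 92.0 CPM (98.2 in control wells and 87.4 in HFD wells, 69.8 to 110 over plates), close to that of Rab6b. The other 10 Rab symbols found only in some of the plate tables had 1 to 19 transcripts each, the most for Rab13.

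Plates 9 and 10 were compared with the other plates for all 3236 genes with a mean plate level of at least 60 CPM. The lower of the levels on plates 9 and 10 was divided by the highest on the other 11 plates. Rab10 had the largest ratio, 2.08, and Riok3 the next, 1.29, and 16 genes had a ratio over 1. The plates had been picked for Rab10, so its place is a description.

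Wells with the same barcode number were also compared between plates. Over 56 barcode numbers kept on both plate 9 and plate 10, which share the name tag P2, the Rab10 level had a Pearson r of 0.372 and a Spearman rho of 0.378. Over the other 77 pairs of plates, with 38 to 131 barcode numbers, r ranged from -0.241 to 0.293 with a median of 0.0109. Rab14 had an r of 0.116 between plates 9 and 10. These are sparse counts and are given as a description.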
